A study of Homo sapiens with 18 samples.

Results

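Of 132604 accessible regions measured in T47D breast carcinoma cells, 55 regions, or 0.0415%, held almost no signal in vehicle-treated cells and a clear signal after 10 nM R5020 at both times of measurement. They were chosen from the measured values: a region entered when its mean accessibility was at most 0.5 CPM with vehicle and at least 4 CPM with 10 nM R5020, at 18 h and also at 6 h. CPM is the count of a region relative to the size of its library, as edgeR computes it after scaling by TMM (trimmed mean of M-values). Closed here means few counts and open means many, on this scale. The levels with vehicle and with 10 nM, and the difference between them, are therefore a description, while the libraries given 0.1 nM R5020 played no part in the choice.

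R5020 (promegestone) is a synthetic progestin that activates the progesterone receptor, a nuclear receptor that binds hormone response elements in DNA once it has bound its ligand. T47D is an established human breast carcinoma line known for its high content of this receptor. Steroid receptors often bind at sites where the chromatin is already open. At other sites the chromatin opens only after the hormone is added, as nucleosomes are moved or evicted. Omni-ATAC-seq reads this state with the Tn5 transposase, which inserts adapters where DNA is exposed, so more reads come from more open regions.

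After serum starvation, cells received DMSO vehicle or R5020 at 0.1 or 10 nM, and were collected 18 h or 6 h later. Each of the 6 groups has 3 libraries, 18 in all, and all come from 1 cell line. The labels do not say if replicate libraries stem from different cultures. The p-values thus reflect library-to-library spread, part of which may be technical. The counts are of bulk cells, so more cells with an open region and a wider opening in each cell cannot be told apart.

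The libraries held between 8756311 and 39984217 counts in regions. The most deeply sequenced library is replicate 1 of 10 nM at 18 h, and it also lies farthest from the mean of its group over all regions. The library next farthest is replicate 1 of vehicle at 6 h. The 5000 strongest regions took 38.2% ± 2.02 of the counts with vehicle, 36.4% ± 3.29 with 0.1 nM and 33.6% ± 3.45 with 10 nM at 18 h (SD, n = 3). The values at 6 h were 39.1% ± 2.39, 38.1% ± 1.37 and 34.1% ± 0.559 in the same order. The part of this share in the results was not tested.

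With 10 nM R5020 the 55 regions had a median level of 5.27 CPM at 18 h and 5.48 CPM at 6 h, against 0.398 CPM and 0.363 CPM with vehicle at the same times. The single regions ran from 4.19 to 12.4 CPM with 10 nM at 18 h and from 4.06 to 12.9 CPM at 6 h. The lowest value of any 10 nM library in any of the 55 regions was 2.10 CPM, and the highest value of any vehicle library was 1.12 CPM. In counts, no 10 nM library held fewer than 24 in one of these regions, and no vehicle library held more than 19. The 10 nM libraries thus stood above the vehicle libraries in all 55 regions, where 19.5% of all regions separated this way at 18 h and 25.3% at 6 h. The choice of regions largely fixes this separation.

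Fitted fold changes of 10 nM over vehicle ran from 9.12 to 34.2 at 18 h, with a median of 14.5, and from 8.56 to 46.9 at 6 h, with a median of 16.2. All 55 regions were called higher at both times by edgeR's quasi-likelihood test (Benjamini-Hochberg adjusted p under 0.05 over all regions tested), where 13.0% of all regions were called higher and 7.21% lower at 18 h, and 17.4% higher and 7.33% lower at 6 h. Since this contrast chose the regions, the count carries no further information. Of all 8614 regions at or under 0.5 CPM with vehicle at both times, the 55 make up 0.638%. Another view of the same threshold is that 107 of the 8614 reached 4 CPM with 10 nM at 18 h and 109 reached it at 6 h.

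**Figure D1:**
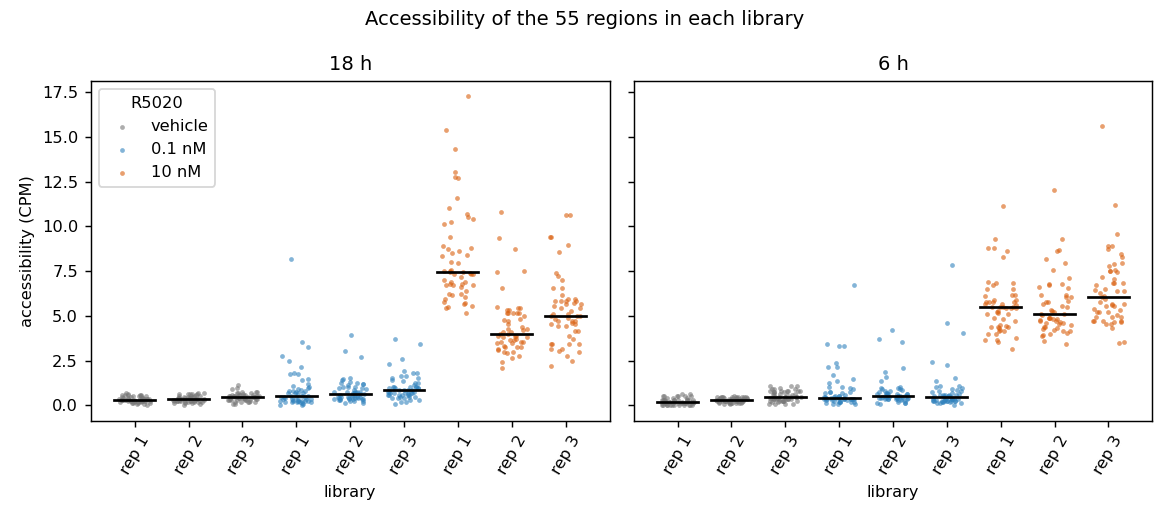
Accessibility in CPM (linear vertical axis) of each of the 55 regions in each of the 18 libraries, 18 h at left and 6 h at right; points are regions and black bars are library medians. The 10 nM medians lie between 3.96 and 7.46 CPM at 18 h and between 5.08 and 6.07 CPM at 6 h, while the 0.1 nM medians stay below 1 CPM and a few 0.1 nM points stand high.

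With vehicle, the median of the 55 regions was 0.296, 0.360 and 0.472 CPM in the 3 libraries at 18 h and 0.205, 0.290 and 0.487 CPM at 6 h. With 0.1 nM it was 0.513, 0.624 and 0.855 CPM at 18 h and 0.413, 0.540 and 0.439 CPM at 6 h. With 10 nM it was 7.46, 3.96 and 4.99 CPM at 18 h and 5.49, 5.08 and 6.07 CPM at 6 h. In CPM the libraries of 10 nM at 18 h lay farthest apart, and replicate 1 was the highest of that group in 53 of the 55 regions. Relative to the mean, the spread was widest with vehicle at 6 h, where the median coefficient of variation of the 55 regions was 65.4%, against 34.6% with 10 nM at 18 h.

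The vehicle and 0.1 nM values rest on few counts. In replicate 1 of vehicle at 6 h, 12 of the 55 regions had a count of 0 and 44 had 3 counts or fewer. A count of 0 in that library allows up to 3 counts, or 0.307 CPM, by counting error alone. Every 10 nM library reached 4 CPM in 23 of the regions, every vehicle library stayed at or under 0.5 CPM in 11, and both held in 4. Without replicate 1 of 10 nM at 18 h, 35 regions met the thresholds, and without replicate 3 of vehicle at 18 h, 90 regions did.

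The highest level with 10 nM was at chr6:137368175-137368532, a region of 357 bp (positions here are in hg19 as the deposited table gives them). It had 14.3, 8.73 and 9.43 CPM with 10 nM at 18 h and 11.1, 12.1 and 15.6 CPM at 6 h, against 0.211, 0.411 and 0.472 CPM with vehicle at 18 h and 0.102, 0.471 and 0.730 CPM at 6 h. Next came chr8:68071401-68071735, with 17.3, 9.37 and 10.6 CPM with 10 nM at 18 h and 8.80, 9.29 and 9.59 CPM at 6 h. Its vehicle libraries held 0.254 to 0.531 CPM at 18 h and 0.325 to 0.512 CPM at 6 h. In both regions the lowest 10 nM library lay far above the highest vehicle library, and replicate 1 was the highest at 18 h.

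Among the other regions with high 10 nM levels, chr7:127510323-127510820 averaged 8.93 ± 3.61 CPM at 18 h and 9.50 ± 1.49 CPM at 6 h with 10 nM (SD, n = 3). The region chr15:86131150-86131626 averaged 11.1 ± 4.21 CPM at 18 h and 6.23 ± 0.495 CPM at 6 h. The fold over vehicle was largest, at 34.2 for 18 h and 33.7 for 6 h, in chr4:166289287-166289628 among the 8 regions with the highest 10 nM levels, except for 46.9 at 6 h in chr18:56213329-56213669. The 2 further regions of these 8 were chr6:139445293-139445751, with means of 7.99 CPM at 18 h and 7.93 CPM at 6 h, and chr1:28082353-28082763, with 10.1 CPM at 18 h and 4.81 CPM at 6 h. The SD of the 10 nM level at 18 h was 2.71 to 4.25 CPM in these 8 regions, and replicate 1 was the highest library in each.

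The question the remaining libraries answer is what a dose of R5020 lower by a factor of 100 did at the same places. With 0.1 nM, most of the 55 regions stayed low. Their median was 0.681 CPM at 18 h and 0.437 CPM at 6 h. At 18 h, 37 regions were over 0.5 CPM, 15 were over 1 CPM, 4 were over 2 CPM and 1 was over 4 CPM. The counts at 6 h were 26, 9, 4 and 1. At both times, 15 of the 55 stayed at or under 0.5 CPM, and thus inside the limit set for vehicle, while 8 were over 1 CPM at both times.

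By the edgeR test, 7 of the 55 regions were higher with 0.1 nM than with vehicle at 18 h, where 1.74% of all regions were called higher, and 5 were higher at 6 h, where 0.947% were. None was called lower, where 0.663% of all regions were at 18 h and 0.220% at 6 h. The median log2 fold change of the 55 was 0.82 at 18 h and 0.46 at 6 h, against 0.01 and -0.02 over all regions tested. The vehicle libraries of this comparison also served to choose the regions, which were taken for being low in them, so the levels with vehicle are not independent of the choice. At an unadjusted p under 0.05 by edgeR, 22 regions passed at 18 h, where 11.4% of all regions did, and 16 at 6 h, where 8.78% did. The 3 libraries with 0.1 nM all lay above the 3 with vehicle in 19 regions at 18 h, where 8.99% of all regions did, and in 16 at 6 h, where 7.45% did. They all lay below the vehicle libraries in none, where 7.12% of all regions did at 18 h and 6.20% at 6 h.

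The count at 18 h rests on single libraries. It was 3 without replicate 1 of 0.1 nM, 3 without replicate 1 of vehicle and 3 without replicate 2 of vehicle, and it was 4 when only the compared groups entered the fit. The 3 regions that kept their call at both times under all 13 alternatives were chr6:137368175-137368532, chr6:3675524-3675953 and chr12:22302111-22302608. These are also the 3 regions that were over 2 CPM with 0.1 nM at both times.

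The strongest low-dose signal was again at chr6:137368175-137368532. It had 8.17, 3.95 and 3.70 CPM with 0.1 nM at 18 h, against 0.211, 0.411 and 0.472 CPM with vehicle. Its 6 h libraries had 6.72, 4.20 and 7.83 CPM with 0.1 nM, against 0.102, 0.471 and 0.730 CPM with vehicle. The groups were wide apart at both times, and within the 0.1 nM group at 18 h replicate 1 was well above the others. The log2 fold change was 3.91 ± 0.44 (SE) at 18 h and 3.76 ± 0.44 at 6 h, with edgeR adjusted p of 3.16e-05 and 5.34e-05. Its 0.1 nM level was 48.7% of the 10 nM level at 18 h and 48.3% at 6 h.

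The region chr6:3675524-3675953, 429 bp wide, came closest to its high-dose level with the low dose. It had 3.55, 3.05 and 3.42 CPM with 0.1 nM at 18 h, against 0.169, 0.257 and 0.885 CPM with vehicle. At 6 h it had 3.42, 3.72 and 4.57 CPM with 0.1 nM, against 0, 0.145 and 0.487 CPM with vehicle. No 0.1 nM library came near a vehicle library at either time. The fold over vehicle was 7.98 at 18 h and 18.5 at 6 h (edgeR adjusted p = 0.000881 and 0.000135).

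With 10 nM the same region had 5.18, 3.56 and 4.44 CPM at 18 h and 4.35, 4.90 and 5.62 CPM at 6 h, so the doses overlapped at 6 h, and at 18 h the lowest 10 nM library was just above the highest 0.1 nM library. It was the only one of the 55 whose doses were not called different at either time. The log2 difference of 10 nM over 0.1 nM was 0.40, with a 95% interval of -0.34 to 1.15, at 18 h (edgeR adjusted p = 0.646). The difference at 6 h was 0.35, with an interval of -0.37 to 1.06 (adjusted p = 0.598). A difference of up to about 1 on the log2 scale is within both intervals. Its 0.1 nM level had covered 73.4% of the rise from the vehicle level to the 10 nM level at 18 h and 77.8% at 6 h.

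The region chr12:22302111-22302608 had 3.26, 2.70 and 2.56 CPM with 0.1 nM at 18 h, against 0.338, 0.617 and 0.531 CPM with vehicle. Its 6 h libraries had 3.33, 3.54 and 4.06 CPM with 0.1 nM, against 0.512, 0.326 and 0.487 CPM with vehicle. The replicates lay close together, and the groups did not come near each other. The fold over vehicle was 5.82 at 18 h and 8.65 at 6 h, with edgeR adjusted p of 2.51e-05 and 7.27e-06. Its level with 10 nM was 6.92 ± 1.03 CPM at 18 h and 5.69 ± 0.437 CPM at 6 h (SD, n = 3), so the low dose covered 36.5% of the rise at 18 h and 61.0% at 6 h.

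A further pair of regions was called at both times with smaller levels. The region chr9:111470699-111470886, the narrowest of the 55 at 187 bp, had 2.12, 1.39 and 0.760 CPM with 0.1 nM at 18 h, against 0.338, 0.411 and 0.531 CPM with vehicle. At 6 h it had 3.33, 2.10 and 2.23 CPM with 0.1 nM, against 0.307, 0.217 and 0.812 CPM with vehicle. Its 3 low-dose libraries lay above the vehicle libraries at both times, with 1 of them close to vehicle at 18 h. The fold was 3.51 at 18 h and 6.19 at 6 h (edgeR adjusted p = 0.0256 and 0.00235). Its call at 18 h was lost without replicate 1 or 2 of 0.1 nM and without replicate 1 or 2 of vehicle, with edgeR adjusted p of 0.206, 0.0580, 0.155 and 0.107 in that order, and when only the compared groups were fitted (0.115).

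The region chr18:56213329-56213669 had 2.45, 1.52 and 2.28 CPM with 0.1 nM at 18 h, against 0.338, 0.411 and 0.708 CPM with vehicle. Its 6 h libraries had 2.39, 1.02 and 2.41 CPM with 0.1 nM, against 0, 0.0724 and 0.487 CPM with vehicle. The groups did not overlap, and replicate 2 was the lowest of the 0.1 nM libraries at both times. The fold was 4.39 at 18 h and 11.5 at 6 h (edgeR adjusted p = 0.0176 and 0.00243). Its call at 18 h was lost without replicate 1 of 0.1 nM, replicate 1 of vehicle or replicate 2 of vehicle (adjusted p = 0.0884, 0.131 and 0.0977 by edgeR). Its call at 6 h was lost without replicate 2 of vehicle (adjusted p = 0.0619 by edgeR) and when only the compared groups were fitted (edgeR adjusted p = 0.0657).

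The 2 other regions called at 18 h, named here after their values were seen, had low levels. At chr6:53218496-53218856 the 0.1 nM libraries held 1.39, 1.25 and 1.04 CPM at 18 h, against 0.465, 0.257 and 0.472 CPM with vehicle, a fold of 3.10 (edgeR adjusted p = 0.0204). At chr10:71987777-71988155 they held 1.06, 1.04 and 1.23 CPM, against 0.550, 0.411 and 0.531 CPM with vehicle, a fold of 2.20 (edgeR adjusted p = 0.0443). In both, every low-dose library lay above every vehicle library. The call was kept in 8 of 13 alternatives for the chromosome 6 region and in 5 of 13 for the chromosome 10 region. It was lost without replicate 1 or 2 of either group in the chromosome 6 region, with edgeR adjusted p between 0.0571 and 0.126. Leaving out any of the 6 compared libraries ended the call of the chromosome 10 region, with edgeR adjusted p between 0.0914 and 0.195. Both calls were also lost when only the compared groups were fitted (edgeR adjusted p = 0.152 and 0.389), and that of the chromosome 10 region with the DESeq2 Wald test (adjusted p = 0.0972).

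At the other end stand the 5 regions with the lowest 0.1 nM levels, which were picked for those levels, so their closeness to vehicle is a description. The lowest, chr2:216842232-216842579, had 0.330, 0.208 and 0.285 CPM with 0.1 nM at 18 h, against 0.254, 0.0514 and 0.472 CPM with vehicle. At 6 h it had 0.265, 0.120 and 0.110 CPM with 0.1 nM, against 0.205, 0.181 and 0.0812 CPM with vehicle. The values of both groups lie among each other. With 10 nM the same region had 5.66, 2.75 and 4.16 CPM at 18 h and 5.44, 4.26 and 5.56 CPM at 6 h.

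The other 4 of these were chr4:159991041-159991474, chr6:139445293-139445751, chrX:71269532-71270115 and chr4:52750349-52750698. Their 0.1 nM means ran from 0.234 to 0.325 CPM at 18 h and from 0.177 to 0.369 CPM at 6 h, against 0.221 to 0.427 CPM and 0.166 to 0.497 CPM with vehicle. Their 10 nM means ran from 4.91 to 7.99 CPM at 18 h and from 4.39 to 7.93 CPM at 6 h. One of them, chr6:139445293-139445751, thus belongs both to the 8 regions with the highest 10 nM levels and to the 5 with the lowest 0.1 nM levels.

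Across the 55 regions, the 0.1 nM level at 18 h followed that at 6 h, with a Pearson correlation of 0.86 on the log2 scale and a Spearman correlation of 0.76 (n = 55 regions, which share their libraries). The 0.1 nM level followed the 10 nM level far less, with correlations of 0.21 and 0.12. For the 10 nM levels at 18 h and 6 h, which share the lower limit of the choice, they were 0.59 and 0.51. These are descriptions over regions and carry no test.

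**Figure D2:**
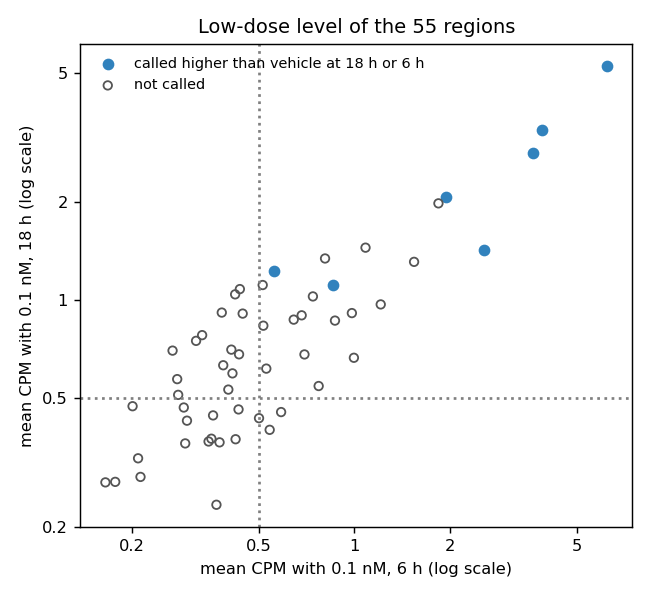
Mean accessibility with 0.1 nM R5020 (CPM, log axes, 3 libraries per mean) at 6 h across and 18 h up, for the 55 regions; filled points were called higher than vehicle at one time or both, and dotted lines mark 0.5 CPM. Most points lie near or below 1 CPM, and 3 regions stand above 2 CPM at both times, reaching 5.27 CPM at 18 h and 6.25 CPM at 6 h in the highest.

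How far the low dose went was measured as the share of the rise from vehicle to 10 nM that was reached with 0.1 nM. The median share over the 55 regions was 6.39% at 18 h and 2.64% at 6 h. It was under 10% in 38 regions at 18 h and in 45 at 6 h. It was over 50% in 1 region at 18 h and in 3 regions at 6 h. Without replicate 1 of 10 nM the median share at 18 h was 7.68%.

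Regions that 10 nM raised from an already open state serve here as a comparison. These are 3453 regions with at least 2 CPM with vehicle that were called higher with 10 nM at both times. Their median vehicle level was 4.03 CPM at 18 h and 3.81 CPM at 6 h. Their median share was 27.3% at 18 h and 15.4% at 6 h. It ran from -62.1% to 433% at 18 h and from -56.2% to 446% at 6 h. In the 55 it ran from -3.05% to 73.4% at 18 h and from -4.12% to 77.8% at 6 h. The share was over 50% in 28.0% of the open gains at 18 h and in 16.4% at 6 h. The fold of 0.1 nM over vehicle, which is not a share of the rise, was larger in the 55. Its median on the log2 scale was 0.82 at 18 h and 0.46 at 6 h, against 0.51 and 0.42 in the open gains. The fold of 10 nM over vehicle was larger in the 55 as well. Its log2 medians were 3.86 at 18 h and 4.02 at 6 h, against 1.30 and 1.64 in the open gains. With 0.1 nM, 21.0% of the open gains were called higher than vehicle at 18 h and 13.5% at 6 h. They have more counts per region than the 55, so a call takes a smaller fold there. Both sets were chosen on the 10 nM and vehicle libraries, and the difference between them is given without a test.

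**Figure D3:**
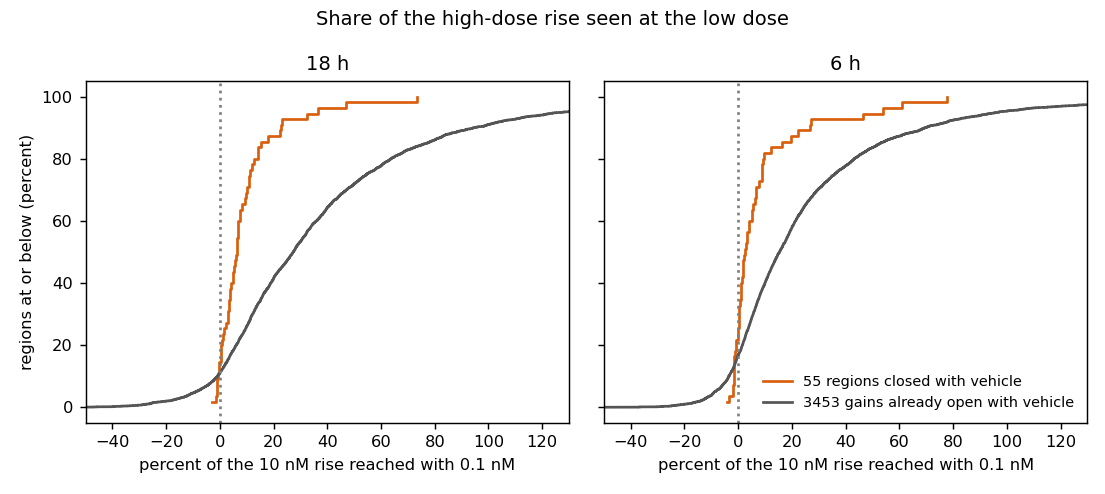
Cumulative percent of regions (vertical axis) by the percent of the 10 nM rise over vehicle that was reached with 0.1 nM (horizontal axis), 18 h at left and 6 h at right, for the 55 regions and for 3453 gains that were already open with vehicle. The curve of the 55 regions climbs close to 0, with medians of 6.39% at 18 h and 2.64% at 6 h, against 27.3% and 15.4% for the open gains.

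Set beside the other 8559 closed regions, and given without a test, more of the 55 carried a low-dose signal. With 0.1 nM, 27.3% of the 55 were over 1 CPM at 18 h and 16.4% at 6 h, against 4.33% and 1.47% of the other closed regions. Those called higher than vehicle were 12.7% at 18 h and 9.09% at 6 h, against 1.19% and 0.517% of the 8127 other closed regions that passed the filter on low counts. The median log2 fold change of the other closed regions with 0.1 nM was 0.50 at 18 h and 0.05 at 6 h, so at 18 h it too lay above that of all regions. Vehicle levels were also higher in the 55, with medians of 0.398 CPM in the 55 and 0.339 CPM in the other closed regions at 18 h, and 0.363 CPM and 0.283 CPM at 6 h. The medians with 0.1 nM were 0.681 CPM and 0.472 CPM at 18 h, and 0.437 CPM and 0.284 CPM at 6 h. The part of the vehicle level in this difference was not tested.

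Within the closed regions, more of those with a high 10 nM level had a low-dose signal. When they were grouped by the lower of their 10 nM levels at the 2 times, the percent over 1 CPM with 0.1 nM at 18 h was 3.20 below 0.5 CPM, 2.96 from 0.5 to 1 CPM, 6.28 from 1 to 2 CPM, 13.7 from 2 to 4 CPM and 27.3 in the 55. The percents at 6 h were 0.469, 0.931, 2.48, 7.46 and 16.4 in the same order. The order held at every step at 6 h, while the 2 lowest groups were in reverse order at 18 h. The median width of the groups was 174, 181, 232, 299.5 and 389 bp in this order. Their median vehicle level was 0.334, 0.330, 0.355, 0.375 and 0.398 CPM at 18 h and 0.274, 0.273, 0.302, 0.325 and 0.363 CPM at 6 h. The part of width and of the vehicle level in this order was not tested.

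**Figure D4:**
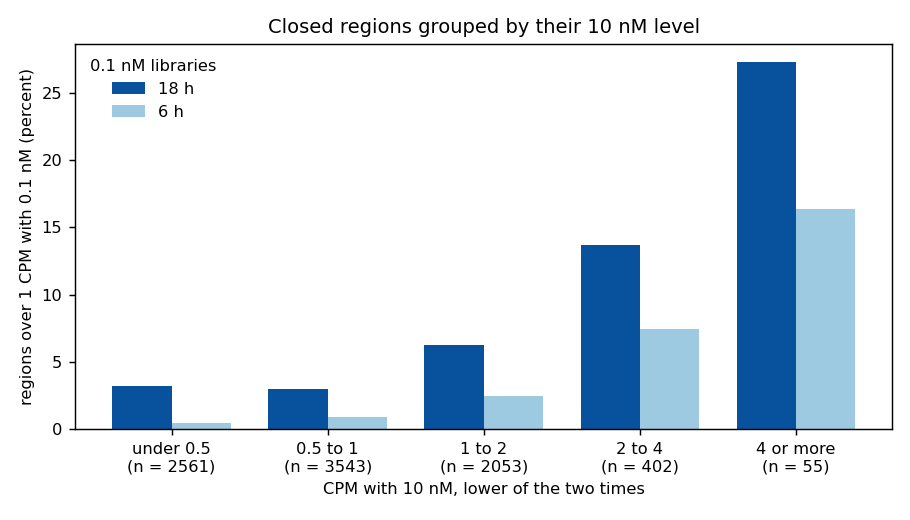
Percent of closed regions over 1 CPM with 0.1 nM R5020 (vertical axis, from 0) at 18 h (dark bars) and 6 h (light bars), grouped by the lower of the 10 nM levels at the 2 times in CPM; n is the number of regions in each group. The bars are highest for the 55 regions at 4 CPM or more, at 27.3% for 18 h and 16.4% for 6 h.

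Compared directly, 10 nM gave more accessibility than 0.1 nM in nearly all of the 55 regions. By the edgeR test 52 were higher with 10 nM at 18 h, where 6.68% of all regions were called higher, and 53 at 6 h, where 15.5% were. None was called lower, where 4.21% of all regions were at 18 h and 4.76% at 6 h. The median log2 fold change of 10 nM over 0.1 nM was 3.27 at 18 h and 3.60 at 6 h, against -0.01 and -0.03 over all regions. The 3 libraries with 10 nM all lay above the 3 with 0.1 nM in 55 regions at 18 h, where 12.8% of all regions did, and in 54 at 6 h, where 23.3% did. The 10 nM libraries were used to choose the regions, so this count too is not independent of the choice.

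The exceptions were few. At 18 h they were chr6:3675524-3675953, described above, chr1:37208589-37209038 and chr6:137368175-137368532. For chr1:37208589-37209038, named here after its values were seen, the 10 nM libraries held 6.22, 3.23 and 5.92 CPM at 18 h, against 2.75, 1.32 and 1.90 CPM with 0.1 nM. The groups did not overlap, and the log2 difference was 1.34 with a 95% interval of 0.33 to 2.36 (edgeR adjusted p = 0.110). For chr6:137368175-137368532 the log2 difference at 18 h was 1.02 with an interval of 0.37 to 1.66 (edgeR adjusted p = 0.0525), and at 6 h it was 1.04 and called (adjusted p = 0.0247 by edgeR). That 6 h call was lost without replicate 1 or 2 of 0.1 nM or replicate 3 of 10 nM, with edgeR adjusted p of 0.0525, 0.0899 and 0.118. The difference at 18 h was called without replicate 1 of 0.1 nM (edgeR adjusted p = 0.0112), and without replicate 2 of 10 nM (edgeR adjusted p = 0.0474).

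The 18 h differences in chr1:37208589-37209038 and chr6:137368175-137368532 were both called when replicate number entered as a block (edgeR adjusted p = 0.0415 and 0.0199). At 6 h the exceptions were chr6:3675524-3675953 and chr9:111470699-111470886. In the chromosome 9 region the 10 nM libraries held 3.97, 4.53 and 4.57 CPM, against 3.33, 2.10 and 2.23 CPM with 0.1 nM, with no overlap. The log2 difference there was 0.76 with a 95% interval of 0.09 to 1.43 (edgeR adjusted p = 0.134). A p that misses the threshold does not show that the doses acted alike in these regions. The call at 6 h of chr12:22302111-22302608 (edgeR adjusted p = 0.0462) was kept in 5 of 13 alternatives. It was lost without any 1 of the 6 compared libraries, with edgeR adjusted p between 0.0625 and 0.161, with DESeq2 size factors (0.0504) and with TMM after the filter (0.0522). The call at 6 h of chr1:37208589-37209038 (edgeR adjusted p = 0.0287) was kept in 9 of 13, and was lost without replicate 1 or 3 of 10 nM (edgeR adjusted p = 0.0675 and 0.100) and without replicate 1 or 3 of 0.1 nM (edgeR adjusted p = 0.0610 and 0.114).

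Between the times, the 0.1 nM libraries give the comparison in which no library was used to choose the regions. None of the 55 was called higher or lower at 18 h than at 6 h with 0.1 nM by edgeR, where 0% of all regions were called higher and 0.00151% lower. At an unadjusted p under 0.05 by edgeR, 7 of the 55 passed, where 9.57% of all regions did. DESeq2 called 0 of the 55 and 215 of all regions. The median log2 fold change of 18 h over 6 h was 0.35 in the 55, 0.66 in the other closed regions and 0.04 over all regions. All 3 libraries at 18 h lay above all 3 at 6 h in 7 of the 55, where 6.71% of all regions did, and below them in 1, where 6.31% did.

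The low-dose libraries at 18 h also differed in depth and composition. Replicate 3, the shallowest of the 0.1 nM libraries with 8865035 counts, was the highest of its group in 31 of the 55 regions and had the smallest share of counts in the 5000 strongest regions, 33.0%. The median of the other closed regions was 0.293, 0.416 and 0.665 CPM in replicates 1, 2 and 3 at 18 h, against 0.206, 0.360 and 0.256 CPM at 6 h. The level of the 55 thus moved with that of closed regions in general, and the part of this in the difference between times was not tested.

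With 10 nM, the 55 regions had similar medians at the 2 times. None was called higher or lower at 18 h than at 6 h by edgeR, where 0.104% of all regions were called higher and 1.25% lower. At an unadjusted p under 0.05 by edgeR, 3 of the 55 passed, where 11.2% of all regions did. DESeq2 called 0 of the 55 and 3193 of all regions. The median log2 fold change of 18 h over 6 h was 0.01, against -0.04 over all regions and -0.25 in the already open gains, of which 183 of 3453 were called lower. All 3 libraries at 18 h lay above all 3 at 6 h in 2 of the 55, where 5.32% of all regions did, and below them in 1, where 11.4% did. The choice set a lower limit at both times but used no difference between them.

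The balance between the times rests on 1 library. The mean at 18 h was below the mean at 6 h in 27 of the 55 regions with all libraries, and in 44 of the 55 with replicates 2 and 3 alone at 18 h. The median level at 18 h was 4.54 CPM over those 2 libraries, against 5.48 CPM at 6 h. With them, 35 of the 55 regions were still at 4 CPM or more at 18 h. Replicate 1, left out here, is the library with the most counts in the series.

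**Figure D5:**
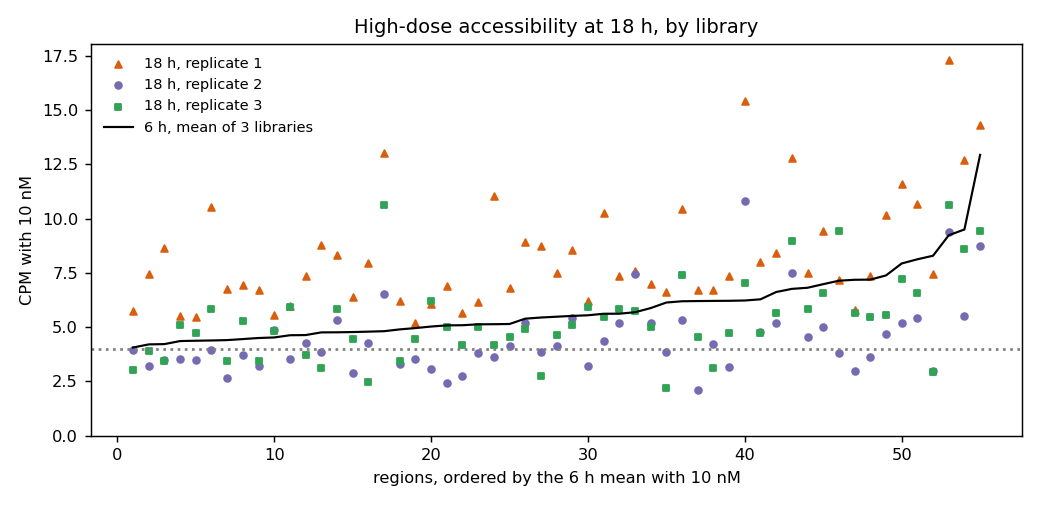
Accessibility with 10 nM R5020 in CPM (vertical axis, from 0) of the 55 regions, ordered by their mean at 6 h (black line); points are the 3 libraries at 18 h and the dotted line marks 4 CPM. Replicate 1 at 18 h lies above the other libraries in 53 of 55 regions, and replicates 2 and 3 together average below the 6 h line in 44.

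The largest log2 difference of 18 h over 6 h with 10 nM was at chr1:28082353-28082763, with 13.0, 6.55 and 10.6 CPM at 18 h, against 4.16, 4.62 and 5.65 CPM at 6 h. All of the 18 h libraries were above all of the 6 h libraries. The log2 difference of 1.07 ± 0.45 (SE) was not called (edgeR adjusted p = 0.348). Next in size were chr15:86131150-86131626, with 15.4, 10.8 and 7.03 CPM at 18 h, against 6.15, 6.75 and 5.77 CPM at 6 h, and chr4:52750349-52750698, with 10.5, 3.96 and 5.82 CPM at 18 h, against 4.49, 4.13 and 4.54 CPM at 6 h. The groups did not overlap in the chromosome 15 region and overlapped in the chromosome 4 region.

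The largest difference in the other direction was at chr1:191544969-191545405, with 7.46, 2.99 and 2.96 CPM at 18 h, against 9.27, 8.16 and 7.43 CPM at 6 h. Replicates 2 and 3 at 18 h lay far below the 6 h libraries and replicate 1 lay beside the lowest of them. The log2 difference was -0.84 ± 0.32 (SE) with all libraries (edgeR adjusted p = 0.274). Without replicate 1 at 18 h it was -1.44 ± 0.31 and was called (edgeR adjusted p = 0.0181), the 1 call that this comparison then gave among the 55. Smaller differences were seen at chr17:43537327-43537688, with 5.79, 2.99 and 5.64 CPM at 18 h, against 6.48, 7.57 and 7.49 CPM at 6 h, and at chr2:180427093-180427385, with 6.60, 3.88 and 2.22 CPM at 18 h, against 5.68, 6.62 and 6.10 CPM at 6 h. In the chromosome 17 region all 18 h libraries were the lower, while in the chromosome 2 region replicate 1 at 18 h was near the highest 6 h library.

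The interaction test asks whether a response to a dose differed between the times. Of the 55 regions, 0 were called by edgeR for either dose, and 1 passed an unadjusted p under 0.05 for each. That unadjusted threshold was passed by 2.46% of all regions for 0.1 nM and by 5.70% for 10 nM. Over all regions, 0% were called for 0.1 nM in either direction, and for 10 nM 0% were called higher and 0.00151% lower.

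The regions were of ordinary width for the table as a whole and wide for closed regions. Their median width was 389 bp, with a range of 187 to 594 bp, against 386 bp over all regions, 188 bp over the other closed regions and 661 bp over the already open gains. The widest was chr16:74550023-74550617, with 6.40 ± 1.74 CPM at 18 h and 6.62 ± 1.15 CPM at 6 h with 10 nM (SD, n = 3). Width and the mean 10 nM level were hardly related within the 55 (Pearson 0.15 on the log2 scale, Spearman 0.17), where the choice narrowed the range of the 10 nM level. The levels given here are per region and not per length. Among closed regions, the median width rose with the 10 nM level, as given above. How the region list was merged was not given, so the widths may not be independent of the 10 nM signal that chose the 55.

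The 55 regions lie apart from each other, on 17 chromosomes. Chromosomes 2 and 4 hold 8 each, or 14.5%, against 6.50% and 4.27% of all regions and 9.63% and 7.14% of the other closed regions. Chromosome 6 holds 7 and chromosome 1 holds 6, or 12.7% and 10.9%, against 5.08% and 8.54% of all regions. Chromosomes 3 and 7 hold 5 each, or 9.09%, against 7.46% and 5.27%. No member lay on chromosomes 13, 14, 19, 20, 21 or 22, which hold 1.55% to 4.08% of all regions each. Nor did any lie on Y or M, which hold 0.140% and 0.00528%. The closest pair, chr6:137368175-137368532 and chr6:139445293-139445751, is separated by 2076761 bp, so no member lay within 50 kb of another. The first of these has the highest 0.1 nM level of the 55 and the other is among the 5 lowest.

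Their surroundings responded to 10 nM more often than those of other closed regions. The nearest other region lay a median of 5042 bp away, against 7309 bp for the other closed regions and 5468 bp for all regions. That nearest region was called higher with 10 nM at 6 h in 23 of the 55, or 41.8%, against 21.4% for the other closed regions, 31.2% for the already open gains and 18.0% for all regions. Within 50 kb lay 328 other regions, of which 117, or 35.7%, were called higher with 10 nM at 6 h and 21, or 6.40%, lower. Higher ones made up 21.6% around the other closed regions and 18.2% around all regions.

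At least 1 such neighbour was found for 42 of the 55, or 76.4%, against 55.8% of the other closed regions and 80.4% of the open gains. With 0.1 nM, 15 of the 328 neighbours, or 4.57%, were called higher than vehicle at 18 h, at 6 h or at both. The shares counted in this way were 2.56% around the other closed regions, 3.93% around the open gains and 2.33% around all regions. The neighbours were not used in the choice, but they share its libraries, and regions near each other are not independent, so these shares carry no test. No other region lay within 50 kb of 3 of the 55.

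The thresholds cut through a continuous range of levels. Just inside the limit of 4 CPM with 10 nM at 18 h were chr2:216842232-216842579 at 4.19 CPM and chr2:180427093-180427385 at 4.23 CPM, and just outside were chr9:715923-716347 at 3.92 CPM and chr7:11187715-11188181 at 3.87 CPM. At 6 h chr3:106308090-106308564 at 4.06 CPM and chr1:85289520-85290011 at 4.21 CPM were just inside, and chr8:125501187-125501437 and, at 3.99 CPM, chr5:108754640-108755010 were just outside.

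With vehicle the same holds. At 18 h chr10:71987777-71988155 and chr12:22302111-22302608 were just inside the limit of 0.5 CPM, with 0.497 and 0.495 CPM. Just outside were chr4:106282230-106282602 with 0.505 CPM and chr13:33837712-33838183 with 0.508 CPM. At 6 h chr4:52750349-52750698 and chr1:101647390-101647905 were just inside, with 0.497 and 0.477 CPM, and chr14:81125034-81125388 and chr13:97561746-97562311 were just outside, with 0.508 and 0.519 CPM. Of the regions that failed a single limit, 54 missed the 10 nM limit at 18 h and 52 missed it at 6 h, while 136 missed the vehicle limit at 18 h and 23 missed it at 6 h.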

How the data were processed

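The authors deposited raw counts of reads in regions, in 1 table of all 18 libraries, not normalized. BWA, MACS2 and hg19 were used, per the submitters' processing notes. Their versions, read filters, any Tn5 shift, the merging of the region list, and whether starts count from 0 or 1 were not given in the sources used here. Genes, sequences and marker promoters were not analysed here, since the reference at hand is of another build.

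TMM factors from all 132604 regions gave the CPM of the choice and of the tests. In edgeR 4.0.16 (R 4.3.3), filterByExpr (minimum count 10, minimum total 15) left out 451 regions and kept 132153, all 55 among them, and glmQLFit and glmQLFTest were run in 1 fit of all libraries with 12 residual degrees of freedom. The threshold for a call was an adjusted p (Benjamini-Hochberg) under 0.05. The SE of a log2 fold change is its size over the square root of F. The 95% intervals reach 1.96 SE to each side, a normal limit, and are thus somewhat narrower than the F test would give. The steps were tested on simulated data. Members and lists were chosen with earlier results of these data known. Named regions are the 8 highest with 10 nM, the 5 highest and 5 lowest with 0.1 nM, the 3 largest changes of 10 nM in each direction between times, the widest and narrowest, and the 2 nearest to each threshold on either side.

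Replicate pairs differed by more than sampling noise (chi-square per degree of freedom 3.28 to 27.7). The deviations of all 3 same-numbered pairs correlated above a limit of 0.1 for 10 nM against 0.1 nM at 18 h (r over regions 0.60, 0.19 and 0.45). For 0.1 nM against vehicle at 18 h they were 0.45, 0.098 and 0.45, just short of it. The labels do not state a pairing.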

Additional observations from a re-analysis of the deposited data

How the results depend on the processing

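Direction under the alternatives was followed for the counts of calls and for single regions called with 0.1 nM or missed between the doses. For those regions it was followed for 0.1 nM against vehicle and 10 nM against 0.1 nM, at both times. None of these changed direction. Other named regions, and differences of single regions between the times, were not followed for direction. The balance between times with 10 nM did move, with 44 of 55 regions lower at 18 h without replicate 1 of that group, against 27 with it. The number of regions chosen moved most: 55 with DESeq2 size factors, 64 with library totals and 53 with TMM after the filter (chosen after seeing the data), but 1218 at limits of 1 and 3 CPM, 0 at 0.25 and 6 CPM, and 4 when every library had to meet its limit. It ran from 35 to 90 when 1 library was left out, and was 24 without the 2 libraries farthest from their group means, chosen after seeing the data. For 0.1 nM against vehicle at 18 h, the 7 calls were 4 when only those groups were fitted and 3 to 8 with 1 library left out. For 10 nM at 18 h against 6 h, the 0 calls became 1 without those 2 libraries, and 0 to 1 with 1 library left out. The median 0.1 nM level at 6 h ran from 0.423 to 0.506 CPM and at 18 h from 0.546 to 0.803 CPM with 1 library left out. The cause was not tested beyond fewer libraries in the fit. With replicate number entered as a block, calls were 8 and 7 for 0.1 nM against vehicle at 18 h and 6 h, 54 and 53 for 10 nM against 0.1 nM, 55 and 55 for 10 nM against vehicle, and 0 between times for either dose. For 10 nM against 0.1 nM at 18 h, the block added 2 calls, chr1:37208589-37209038 and chr6:137368175-137368532. That is the comparison whose same-numbered pairs all correlated above the limit of 0.1. The labels state no pairing, so whether the libraries of this or any other comparison share more than a number is not known. The DESeq2 Wald test gave 9 and 7, 53 and 53, 55 and 55, and 0 in the same order. Over all regions and both directions it called 4459 and 2366, 16664 and 29078, and 29055 and 35063. Between the times it called 215 of all regions with 0.1 nM and 3193 with 10 nM. Calls over all regions with the block are not given here. The results followed for single regions, as defined above, kept their side of the threshold in 365 cases, lost it in 38 and gained it in 13. These cases do not cover the rest of the 55. Depth limits what can be said of levels near 0.3 CPM, which rest on a few counts.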
